A study of Mus musculus with 2 samples.

Results

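Around the genes Pax5, Ebf1, Spi1 and Cebpa, 40 of the 51660 CTCF regions of a thymocyte library were found. Each gene was given a fixed window on build mm9: chromosome 4 from 44450000 to 44800000 for Pax5, chromosome 11 from 44350000 to 44900000 for Ebf1, chromosome 2 from 90850000 to 91020000 for Spi1 and chromosome 7 from 35800000 to 36050000 for Cebpa. A region belonged to a window when its midpoint fell inside the bounds, which gave 7 regions for Pax5, 8 for Ebf1, 12 for Spi1 and 13 for Cebpa. The library was made by chromatin immunoprecipitation with an anti-CTCF antibody followed by sequencing. It came from thymocytes labelled as CD4+CD8+ (double positive) and taken from C57BL/6 mice, 4 to 8 weeks old. The mice were Rag1-/-, so they lacked a recombinase that antigen receptor assembly needs, and they carried a rearranged T cell receptor beta transgene. An input library of the same genotype, tissue and age was not analysed here. The labels name neither a sort for the stage nor the number of mice, and a list of positions holds no expression by which the stage or the silence of the 4 genes could be checked. There was 1 CTCF library and thus no replicate, so no p-value is given.

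CTCF binds a long DNA motif through its zinc fingers. It stops the extrusion of chromatin loops by cohesin, and it is known for marking domain borders and for setting which enhancers can reach which promoters. The 4 genes encode transcription factors that direct blood cells away from the T lineage. Ebf1 specifies the B lineage and acts upstream of Pax5, which commits cells to it. Spi1 encodes PU.1, an ETS-family factor of myeloid and B cells and of the earliest thymocytes, and Cebpa encodes a leucine-zipper factor of granulocytes and monocytes.

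The region sequences could not be shown, since no mm9 genome was used here. RefSeq promoters (build GRCm38.p6, 250 bases before to 50 bases after a transcript start, written 5′ to 3′ along the strand of the gene) were listed for 3 of the 4 genes. They are shown because a loose pattern taken from the CTCF motif occurs in Cebpa and in none of the others. Capitals mark it: CA, any 2 bases, AG, any 2 bases, and GGC. Both strands were searched. The long form of the motif has 1 more C in front.
Cebpa, chr7:35119043-35119342, plus strand: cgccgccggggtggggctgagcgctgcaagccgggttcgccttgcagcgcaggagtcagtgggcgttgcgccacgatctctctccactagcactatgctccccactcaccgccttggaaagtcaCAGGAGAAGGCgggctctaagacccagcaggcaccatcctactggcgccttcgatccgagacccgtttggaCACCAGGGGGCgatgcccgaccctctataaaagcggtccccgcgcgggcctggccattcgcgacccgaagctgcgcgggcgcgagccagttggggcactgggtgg
Pax5, chr4:44710645-44710944, minus strand: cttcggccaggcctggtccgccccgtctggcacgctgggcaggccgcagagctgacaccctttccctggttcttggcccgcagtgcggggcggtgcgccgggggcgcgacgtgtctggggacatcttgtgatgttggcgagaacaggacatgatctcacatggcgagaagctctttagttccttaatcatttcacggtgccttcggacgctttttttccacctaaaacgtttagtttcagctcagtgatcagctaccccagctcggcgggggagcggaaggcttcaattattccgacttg
Ebf1, first listed start, chr11:44617850-44618149, plus strand: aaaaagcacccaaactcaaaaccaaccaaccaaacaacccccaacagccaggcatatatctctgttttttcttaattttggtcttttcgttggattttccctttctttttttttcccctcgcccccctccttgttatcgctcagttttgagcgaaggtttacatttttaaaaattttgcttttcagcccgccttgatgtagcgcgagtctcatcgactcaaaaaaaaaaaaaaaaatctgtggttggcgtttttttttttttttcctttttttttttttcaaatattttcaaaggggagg
Ebf1, second listed start, chr11:44619978-44620277, plus strand: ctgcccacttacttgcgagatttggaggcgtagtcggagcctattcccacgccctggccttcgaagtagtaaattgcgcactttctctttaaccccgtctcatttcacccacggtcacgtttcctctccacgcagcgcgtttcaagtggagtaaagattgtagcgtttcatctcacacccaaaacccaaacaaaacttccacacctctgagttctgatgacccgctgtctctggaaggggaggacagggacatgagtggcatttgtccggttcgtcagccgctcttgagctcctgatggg
The Cebpa promoter held the shorter motif in 2 places, as CAGGAGAAGGC from 126 to 116 bases before the start and as CACCAGGGGGC from 55 to 45 bases before it, each on the strand of the gene. Of all 32851 listed promoters, 6.41% held the shorter motif at least once and 0.253% at least 2 times. These shares were taken over promoters of any base composition. G and C made up 67.3% of the Cebpa sequence, 59% of that of Pax5, and 36.7% and 53% of those of Ebf1. Whether the matches follow from base composition was not tested. The 12-base form was in none of the 4 promoters shown and in 2.43% of all promoters. The shorter form was chosen after the Cebpa sequence had been read. The pattern leaves 4 letters free, and no match was scored for how well these letters suit CTCF. A match is a description of letters, and the positions printed with the sequences are of GRCm38, which cannot be set against the mm9 positions of the regions. No region is therefore assigned to a promoter.

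The windows together held 30.3 regions per Mb (95% Poisson interval 21.6 to 41.3), against 19.6 per Mb in the rest of the autosomes and the X, a ratio of 1.55 (exact conditional interval 1.11 to 2.11). Intervals cover counting error only, and they take neighbouring regions as independent, so they are too narrow where regions cluster. The 4 loci were unlike each other. The windows of Spi1 and Cebpa held 59.5 regions per Mb together and those of Pax5 and Ebf1 held 16.7, a division made with the values known and given as a description. Without the Spi1 window the ratio of the remaining 3 to the rest of the genome was 1.24 (0.826 to 1.80), and without the Cebpa window it was 1.29 (0.849 to 1.87), so the interval held 1 once either of these windows was left out. Without the Ebf1 window it was 2.12.

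**Figure D1:**
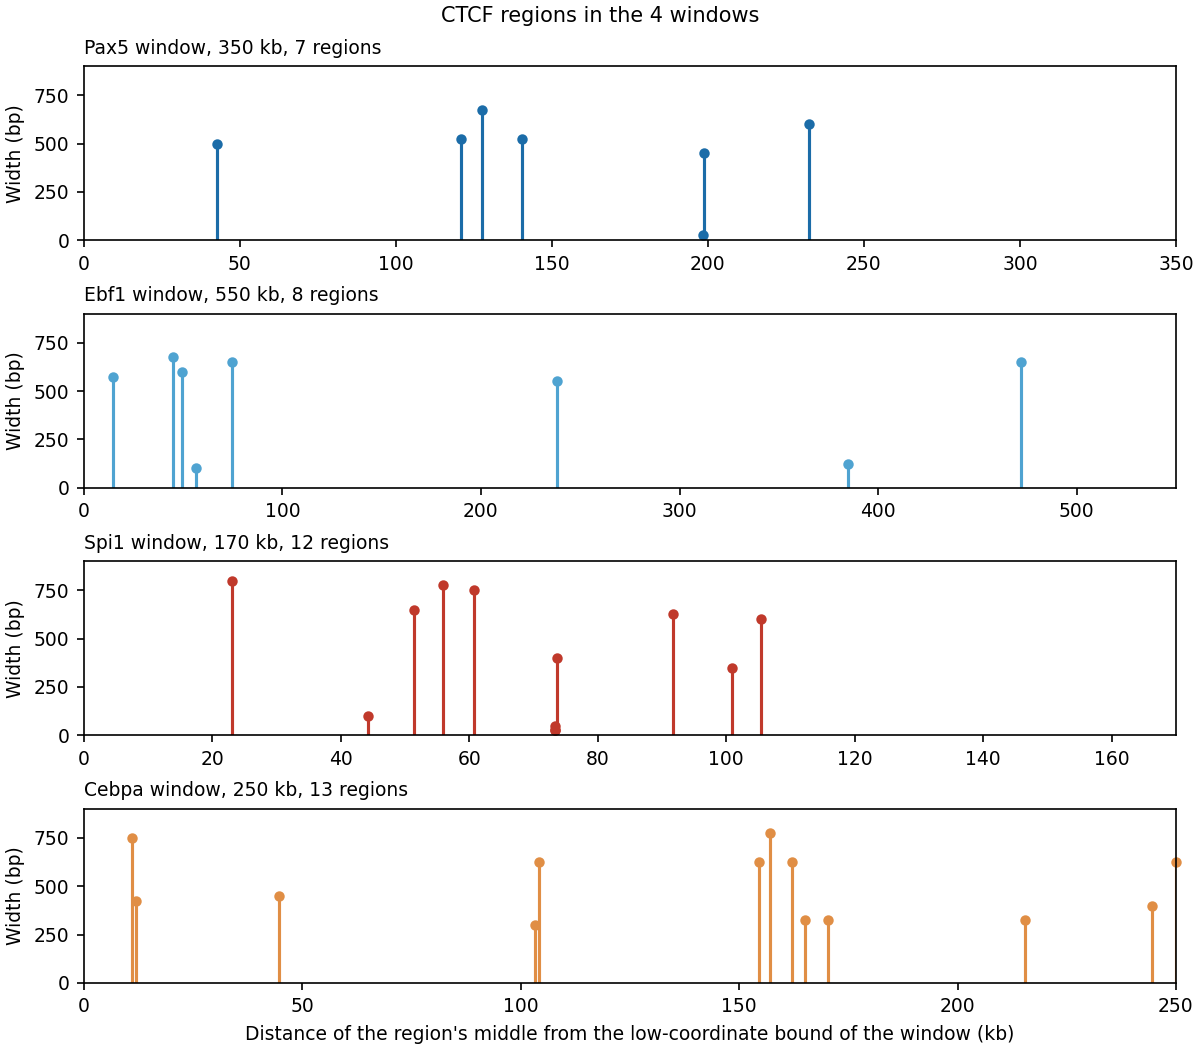
Each stem is a CTCF region, placed by the distance of its middle from the low-coordinate bound of its window (kb, horizontal) and drawn to its width in bp (vertical); the horizontal scale differs between the 4 panels. The 7 Pax5 regions span 190.3 kb, and 5 of the 8 Ebf1 regions stand within 60.5 kb. In Spi1, 11 of the 12 regions stand within 61.5 kb, and in Cebpa 5 of the 13 within 16.3 kb.

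Spi1 had the highest density of the 4, also with widened and narrowed windows. Its 170-kb window held 70.6 regions per Mb (36.5 to 123), against 22.1 in the rest of chromosome 2, a ratio of 3.20 (1.65 to 5.59). After joining regions up to 100 bp apart it held 9 regions and the ratio was 2.61 (1.19 to 4.97). The ratio of Cebpa was then 2.51 (1.33 to 4.29), so the lead of Spi1 over Cebpa was small at this setting. After joining regions up to 1000 bp apart the ratios were 2.82 (1.29 to 5.35) for Spi1 and 2.11 (1.01 to 3.89) for Cebpa, with overlapping intervals. In the RefSeq gene order Spi1 stands between Slc39a13, a zinc transporter gene, and Mybpc3, a gene of the heart sarcomere. The genome was also laid out in consecutive stretches of the same length. Of 15502 such stretches of 170 kb, 6.43% held at least 12 regions, and the median was 1. The first region, from 90872724 to 90873523, was the widest of all 40 at 800 bp. The longest distance inside the window, 20.65 kb, separated it from the next region, a narrow one of 100 bp from 90894174 to 90894273. From there to the last region, of 600 bp and ending at 90955648, 11 regions followed within 61.5 kb. No other region lay between this end and the bound of the window, and the next began at 91023474, outside it.

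Within this group, 3 wide regions followed each other closely. The first ran from 90901124 to 90901773 and was 650 bp wide, the second began at 90905524 with 775 bp, and the third began at 90910299 with 750 bp. Distances of 3.75 and 4.0 kb lay between them. Next came 4 regions within 575 bp, from 90923249 to 90923823, which were 50, 25, 25 and 400 bp wide and each 25 bp apart. A distance of 25 bp is a single missing bin, the shortest that the file can hold, and 4.18% of all distances in the library had this length. The remaining wide region of the 5 widest, 625 bp, ran from 90941424 to 90942048. The 20 kb from 90905524 on held 6 region starts. Counted this way from every region of the library, 2.82% had at least 6. After joining regions up to 100 bp apart, which merges the 4 close ones, the count was 3, and 25.8% of the joined regions had at least 3.

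Cebpa had 52.0 regions per Mb (27.7 to 88.9) in its 250-kb window, against 22.8 in the rest of chromosome 7, a ratio of 2.28 (1.21 to 3.90). The interval held 1 in a window narrowed by 10% on each side (0.90 to 3.75) and among regions of at least 525 bp (0.723 to 4.30). Of 10538 consecutive stretches of this length, 12.4% held at least 13 regions, and the median was 2. In gene order Cebpa follows Cebpg, a gene of the same family, with Gm45095 between them, and precedes Slc7a10, an amino acid transporter gene. No region in this window was under 300 bp wide. The regions came as close pairs and as a group, with empty stretches between. A pair at the low end consisted of 750 bp (35810730 to 35811479) and 425 bp, 225 bp apart. A pair near the middle of the window consisted of 300 bp (35903105 to 35903404) and 625 bp (35903930 to 35904554), 525 bp apart. The longest distance of the window, 58.25 kb, lay before this pair, after a region of 450 bp that ended at 35844854.

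The group of the Cebpa window comprised 5 regions in 16.3 kb, from 35954280 to 35970604, with distances of 1.725 to 4.925 kb. It included the widest region of the window, 775 bp (35956630 to 35957404), and 2 of its 4 regions of 625 bp (35954280 to 35954904 and 35961855 to 35962479). Of all regions, 6.62% had at least 5 region starts in the 20 kb from their own start. The last region, 625 bp from 36049630 to 36050254, crossed the bound of the window, and the next, of 25 bp, followed 150 bp after it. The 20 kb from the start of the region before it, at 36044305, held 7 region starts, a number reached by 1.20% of all regions, but only 2 of the 7 were in the window.

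Pax5 had 20 regions per Mb (8.04 to 41.2) in its 350-kb window, against 21.2 in the rest of chromosome 4, a ratio of 0.945 (0.380 to 1.95). The interval holds both a lower and a higher density, so no difference was detectable with 7 regions. Of 7523 consecutive stretches of 350 kb, 38.8% held at least 7, and the median was 4. The first region ran from 44492536 to 44493035 and was 500 bp wide. The next 3 stood within 20.025 kb: a region of 525 bp began at 44570536, the widest of the window, with 675 bp, at 44577261, and another of 525 bp at 44590036. The fifth, of 25 bp, began at 44648411 and the sixth, of 450 bp, at 44648486. The last ran from 44682236 to 44682835 and was 600 bp wide. The fifth and sixth were 50 bp apart, and 6.17% of all distances in the library were this short or shorter. The longest distance inside the window, 77.5 kb, lay between the first and the second region.

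After the last Pax5 region no other was listed for 300.5 kb, up to a region of 25 bp that began at 44983311. Of all distances between neighbouring regions, 2.47% were longer. In gene order Pax5 stands between Melk, a kinase gene, and Zcchc7, and it is read from high to low coordinates.

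Ebf1 had 14.5 regions per Mb (6.28 to 28.7) in its 550-kb window, the lowest value of the 4 with the bounds as given. With windows widened by 20% on each side Ebf1 held 19.5 per Mb and Pax5 held 16.3, so the order of these 2 loci turned. The rest of chromosome 11 held 33.5 per Mb, a ratio of 0.434 (0.187 to 0.856). The ratio was 0.511 without regions of at most 75 bp, 0.523 after joining regions up to 1000 bp apart and 0.604 among regions of at least 525 bp, and each of these 3 intervals held 1. Set against the whole genome the window did not stand apart in number, since 46.9% of 4783 consecutive stretches of 550 kb held at least 8 regions and the median was 7. Among stretches of chromosome 11 alone, 63.8% did. At the low-coordinate end 5 regions stood within 60.5 kb. The first of these began at 44364371 and was 575 bp wide, and the second, the widest of the window with 675 bp, began at 44394721. A region of 600 bp from 44399396, a narrow one of 100 bp from 44406621 and one of 650 bp from 44424196 to 44424845 completed the group. The other 3 regions of the window began at 44587796 (550 bp wide), at 44734596 (125 bp wide) and at 44821471 (650 bp wide, up to 44822120).

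Past that group, from 44424846 to 45347295, 3 regions were listed over 922 kb, a stretch that runs beyond the window. It was chosen after the positions were seen and is bounded by its own long gaps, so its low number is a description only. They were separated by distances of 162.95, 146.25, 86.75 and 525.2 kb, counting those before the first and after the last of them. The last of these distances ranked 22 of 4073 on chromosome 11, and 1.31% of all distances were longer. The 500 kb above the window held 1 region, against 12 in the 500 kb below it. In gene order the neighbours of Ebf1 are Rnf145, a ubiquitin ligase gene, on the low side and Clint1, a gene of vesicle transport, on the high side, and Ebf1 is read from low to high coordinates.

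**Figure D2:**
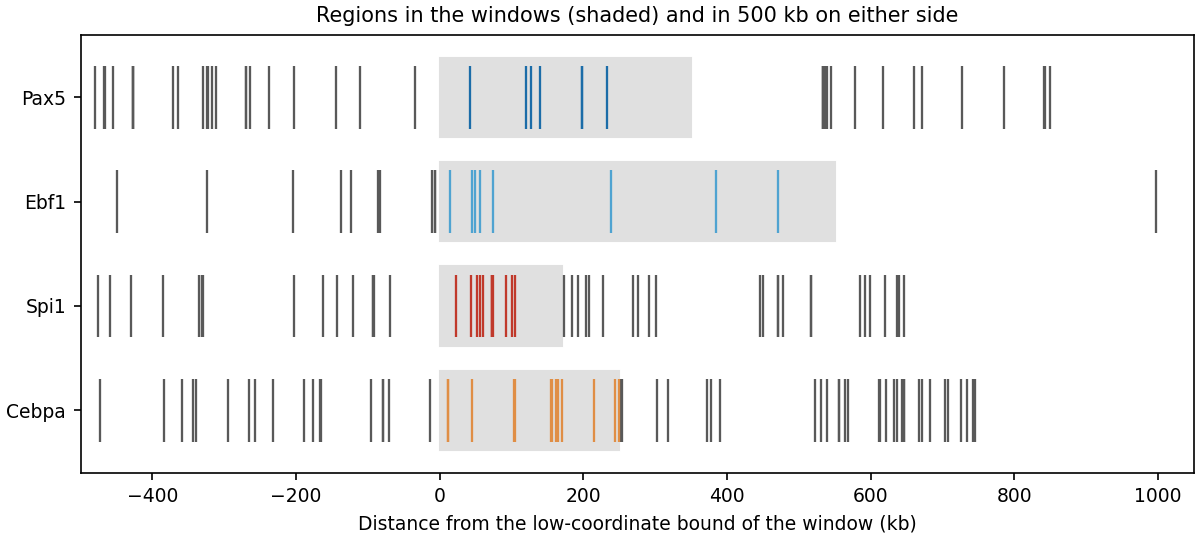
Ticks mark the middle of each CTCF region by its distance from the low-coordinate bound of the window (kb); coloured ticks lie inside the shaded window and grey ticks in the 500 kb on either side, on 1 scale for the 4 loci. The 300.5 kb after the last Pax5 region and the 525.2 kb after the last Ebf1 region are empty. After the last Spi1 region 67.8 kb are empty, and after the last Cebpa region 0.15 kb. The flanks on the high side hold 16 regions at Pax5, 1 at Ebf1, 24 at Spi1 and 34 at Cebpa.

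The flanks did not divide the loci as the windows did. The 500 kb on the low and high side held 22 and 16 regions around Pax5, 12 and 1 around Ebf1, 16 and 24 around Spi1, and 18 and 34 around Cebpa. The window of Spi1 (70.6 per Mb) was denser than its flanks (32 and 48 per Mb). That of Cebpa (52.0 per Mb) was denser than the 36 per Mb below it, but the 68 per Mb above it exceeded the window. The Pax5 window (20 per Mb) was under both of its flanks (44 and 32 per Mb), and Ebf1 (14.5 per Mb) stood between its own (24 and 2 per Mb).

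Neighbouring regions were a median of 4.025 kb apart in the Spi1 window (11 distances), 4.925 kb in Cebpa (12), 22.7 kb in Pax5 (6) and 29.8 kb in Ebf1 (7), against 13.1 kb over all 51640 distances of the library. The order of these medians was not stable. After joining regions up to 100 bp apart the Spi1 median was 7.74 kb, above the 4.925 kb of Cebpa. The Cebpa median was 28.7 kb after joining regions up to 1000 bp apart and 49.7 kb among regions of at least 525 bp, where Pax5 had 12.1 kb and Spi1 13 kb, and the Ebf1 median was 12.05 kb in a window widened by 20% on each side and 116.5 kb in a narrowed one. A region with no other within 50 kb was called lone, and 4 of the 40 members were, against 6.46% of all regions. They were the first Pax5 region and the last 3 of Ebf1. The Ebf1 region from 44587796 was the most isolated member, with 146.25 kb to its nearest neighbour, and 1.54% of all regions were more isolated. Of the 40 members, 11 had another region within 1000 bp, a share of 27.5%, near the 26.8% of all regions. These were 5 in Cebpa, 4 in Spi1 and 2 in Pax5.

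**Figure D3:**
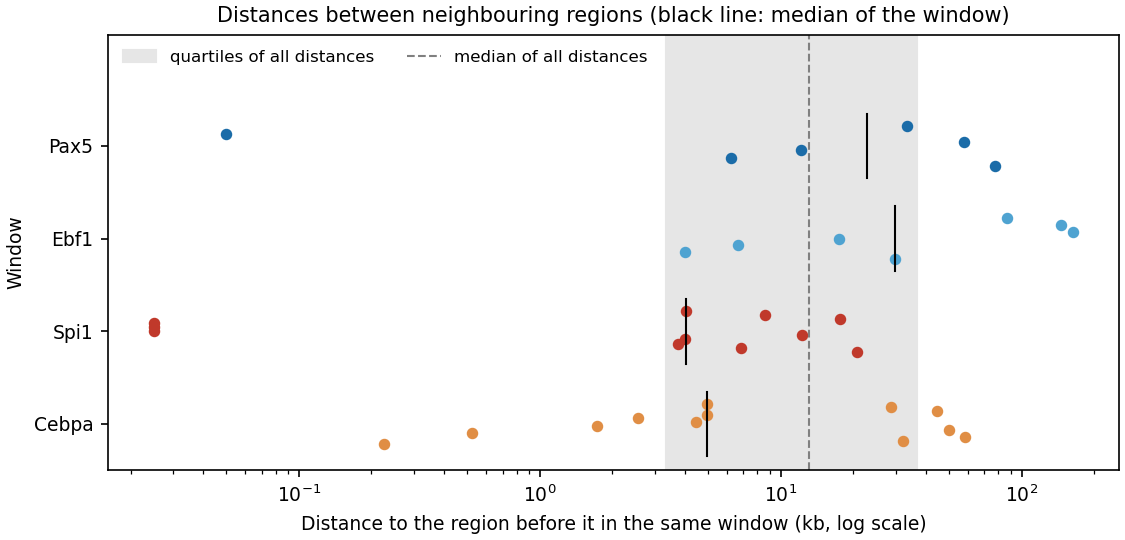
Points give the distance in kb (log scale) from each region to the one before it in the same window, with the median of each window as a black line; the grey band and dashed line are the quartiles (3.325 and 36.7 kb) and the median (13.1 kb) of all distances in the library. The medians of Pax5 and Ebf1 lie above the dashed line and those of Spi1 and Cebpa below it, and the 3 points at 0.025 kb are in Spi1.

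The widths of the members were close to those of the library. Width is the only property of a region besides its position, and it is not a measure of signal height. The median was 537.5 bp (binomial interval of the median 400 to 625 bp) over the 40 members and 525 bp over the other 51620 regions. Regions of at least 575 bp (2 bins under the most frequent width, 625 bp, or wider) made up 19 of 40 members (47.5%), against 43.2% of all regions. Regions of at most 75 bp were 4 of 40 (10.0%), against 14.1% of all regions, and they were the 25-bp region of Pax5 and 3 of the 4 regions within 575 bp in Spi1. Both shares were near those of all regions. The median was highest in Ebf1, 587.5 bp, where 5 of 8 regions reached 575 bp, followed by 525 bp in Pax5, 500 bp in Spi1 and 450 bp in Cebpa. No member was wider than 800 bp.

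**Figure D4:**
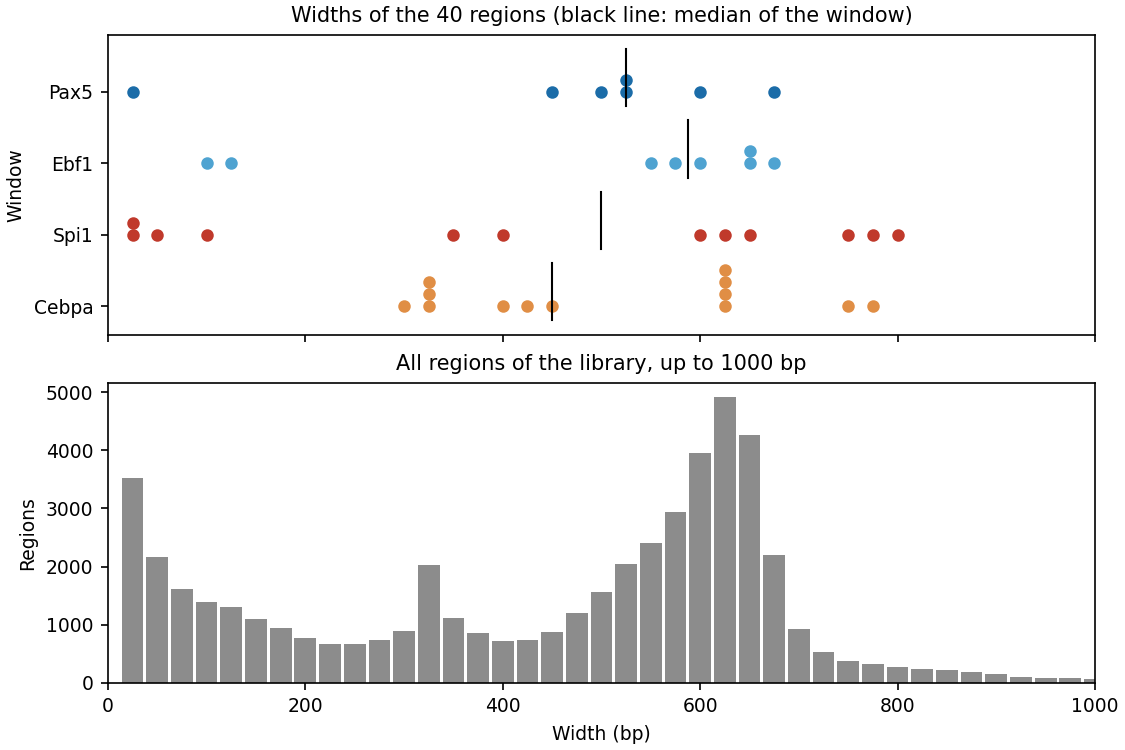
The upper panel gives the width in bp of each of the 40 regions by window, with the median of the window as a black line, and the lower panel the number of regions of each width in the library up to 1000 bp. The Ebf1 points lie at 100 to 125 bp or at 550 to 675 bp, and Spi1 and Cebpa reach 800 and 775 bp.

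Windows around 5 transcription factor genes used by thymocytes were set beside the 4. They are Bcl11b, Gata3, Tcf7, Runx1 and Ets1, in windows of 150 to 350 kb with rounded bounds taken from general knowledge. The 4 windows held 30.3 regions per Mb and the 5 thymocyte windows held 50 (37.7 to 65.1), a ratio of 0.606 (0.393 to 0.927). Single loci of the 2 sets overlapped. Spi1 (70.6 per Mb) was near Bcl11b (70.0), Cebpa (52.0) was between Gata3 (40) and Tcf7 (86.7), and Pax5 (20) and Ebf1 (14.5) were under Ets1 (35.0) and Runx1 (37.1), with overlapping intervals. Without the Ebf1 window the ratio was 0.831 (0.520 to 1.31), and among regions of at least 525 bp it was 0.873 (0.458 to 1.67), so the interval then held 1. Regions of at most 75 bp were 4 of 40 (10.0%) in the 4 windows and 12 of 55 (21.8%) in the thymocyte windows, against 14.1% of all regions. Lone regions were 4 of 40 and 0 of 55, against 6.46% of all regions, and 3 of the 4 were in Ebf1. These counts are small and the differences were not tested. Densities depend on how far the bounds reach past each gene, and these were not the same in the 2 sets.

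**Figure D5:**
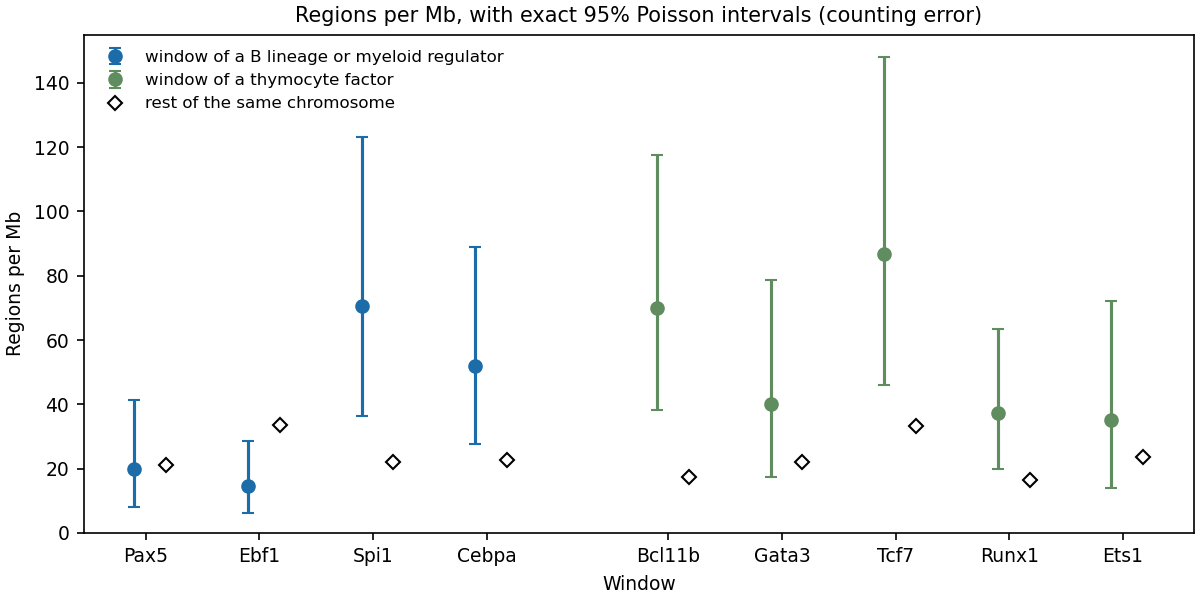
Filled points give regions per Mb in each window with exact 95% Poisson intervals, for the 4 B lineage and myeloid regulators on the left and the 5 thymocyte factors on the right; open diamonds give the rest of the same chromosome. The intervals of Spi1 and Cebpa lie above their diamonds, that of Pax5 holds its diamond, and that of Ebf1 lies below its diamond.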

How the data were processed

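CTCF binding was measured by ChIP-seq in 1 library of thymocytes, fixed with 1% formaldehyde for 10 minutes per the labels' protocols. Library fragments were selected at about 200 to 250 bases, per the same protocols. The submitters' processing notes name Bowtie and the build mm9. Not given in the sources used here are the program that called peaks, its cutoff, and whether input reads entered. The authors' deposited file lists 912174 bins of 25 bp in peaks, each with a chromosome, a start and an end and no height, count, score or p-value, so the depth is unknown. A position that is not listed is no evidence that CTCF was absent. No bin was repeated, 0 had another length, and on each of the 20 chromosomes all bins shared 1 grid. Starts were read as counted from 0, and coordinates are printed counted from 1.

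Adjoining bins (0 bp apart) were joined into regions, and the 1 mitochondrial region was left out. Chromosome lengths were taken up to the last listed coordinate. Poisson, conditional binomial and median intervals are exact at 95%. The joining and interval steps were tested on simulated data. In windows with at most 10 regions all were named, and in larger ones the first, the last, the 5 widest and those beside the longest distance. The regions within 575 bp in Spi1, the close pairs and group of Cebpa and the sparse stretch past the Ebf1 group were named after their values were seen. The 4 windows, the comparison windows and the alternatives were chosen with earlier results of these data known. The bounds are rounded and no mm9 annotation was used to check them. The RefSeq table (GRCm38.p6) gave gene order and promoter sequences only. Tables were handled with pandas 2.3.3 and NumPy 2.4.6 in Python 3.11.15, intervals came from SciPy 1.17.1, and plots from matplotlib 3.10.9.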

Additional observations from a re-analysis of the deposited data

How the results depend on the processing

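Regions were joined across distances of up to 100, 500 or 1000 bp. Other settings dropped regions of 75 bp or less, kept those of at least the median width (525 bp), took any overlap instead of the midpoint, or made windows wider (20% on each side) or narrower (10%). Leaving out each window in turn, widening both sets of windows, and applying the settings to the ratios per chromosome and to the thymocyte windows were added after seeing the data. Keeping regions of at least 525 bp left 22 of 40 members, a loss that follows from the bound. Without the Ebf1 window, the ratio to the rest of the genome was 2.12. In the other settings that ratio was 1.24 to 1.74, and the ratio to the rest of the chromosome was 2.61 to 4.00 for Spi1, 1.97 to 2.67 for Cebpa, 0.339 to 0.604 for Ebf1 and 0.771 to 1.18 for Pax5. The ratio to the thymocyte windows was 0.487 to 0.873, with an interval that held 1 also without regions of at most 75 bp (0.698) and without the Pax5 window (0.680). The median width was 500 to 625 bp. Against stretches of the same chromosome alone, 7.96% held as many regions as Spi1 or more and 16.4% as many as Cebpa or more. The Ebf1 window held 15 regions when widened and 5 when narrowed. Neither weak binding nor its absence can be read from this file. No paired analysis was possible because there is 1 CTCF library.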
